A study of Mus musculus with 45 samples.

Results

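A set of 10 genes that mark neutrophils was followed through every library of the series: *S100a8*, *S100a9*, *Ngp*, *Camp*, *Ltf*, *Retnlg*, *Mmp8*, *Mmp9*, *Elane* and *Mpo*. They were chosen, of 56039 gene identifiers in 3 tables, as granule or calprotectin genes and were selected on their counts in the LPS libraries, where earlier results on these data showed opposite changes after lipopolysaccharide (LPS, a bacterial cell wall component) in sorted microglia and in brain tissue. The direction in those 2 LPS comparisons was therefore used in the choice and is given below as a description, without a test. The comparisons in cultured slices were not used in the choice and were tested.

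The series holds 45 mouse RNA sequencing libraries in 7 groups. Microglia were sorted from neonatal coronal brain slices after 2 weeks in culture, with a last 24 h in medium alone (9 libraries), with 50 ng/mL TNF (11 libraries) or with 20 ng/mL GM-CSF (9 libraries). All groups were of the C57BL/6 strain, and the titles of the adult and brain libraries mark them as wild type (WT). Adult microglia came from female mice of 10 to 15 weeks, 24 h after an intraperitoneal injection of LPS at 1 mg/kg (4 libraries) or of PBS (4 libraries). Brain tissue was collected 24 h after LPS at 1 mg/kg (4 libraries) or without any treatment (4 libraries), and the methods give the age of 10 to 15 weeks for the LPS experiments as a whole. The brain control was thus not injected, unlike the PBS control of the adult microglia. Each slice library pooled 3 slices per the series text, or 2 to 3 per the methods, which also place the slice libraries in 4 independent experiments. The sort kept DAPI negative, CD45 intermediate, CD11B high cells, a gate set below the CD45 high staining typical of blood neutrophils. The adult and brain libraries came from independent mice per the methods. No source used here ties a slice library to a mouse or an experiment, so p-values in slices measure the spread between these libraries.

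Neutrophils carry their antimicrobial proteins in granules that are filled in turn as the cell matures in bone marrow. The azurophil granules come first, with myeloperoxidase (*Mpo*) and neutrophil elastase (*Elane*). The specific granules follow, with lactoferrin (*Ltf*), the cathelicidin precursor (*Camp*), neutrophilic granule protein (*Ngp*) and the collagenase *Mmp8*. Then come the gelatinase granules, with the protease *Mmp9*. *S100a8* and *S100a9* encode the subunits of calprotectin, a metal-binding protein that fills the cytosol of neutrophils, is also made by monocytes, and can signal through Toll-like receptor 4 once released. *Retnlg* encodes a secreted resistin-like protein of mature neutrophils. *Mmp9* is the least restricted of the 10, being made by other glial and myeloid cells too.

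Total counts were 5973364 to 9165485 per slice library, 11391564 to 14216005 per adult microglia library and 8199863 to 10368578 per brain library. Values are counts, or CPM (counts relative to the library total) scaled by the trimmed mean of M values. A count of 0 allows up to 3 counts, which was 0.325 to 0.538 CPM in slices, 0.215 to 0.257 CPM in adult microglia and 0.292 to 0.363 CPM in brain. These limits cover counting error only. Markers of the labelled cell types were abundant: the 9 microglia genes summed to 28984 to 52920 CPM in adult microglia, and the 6 neuron genes to 5786 to 6334 CPM in brain tissue. The brain libraries were made with another kit than the sorted microglia, and the 3 tables were scaled separately, so levels set side by side across them are descriptions.

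The members were sparse. After a filter on low counts, 4 of the 10 could be tested in slices (*S100a8*, *S100a9*, *Mmp8*, *Mmp9*), 5 in adult microglia (*S100a8*, *S100a9*, *Ngp*, *Camp*, *Ltf*) and 2 in brain (*S100a9*, *Mmp9*). Of the others, *Elane* had no count in any slice or brain library and 4 counts in all of adult microglia, all in PBS replicate 2. *Mpo* had 9 counts in slices, all in medium replicate 4, 6 counts in adult microglia, again all in PBS replicate 2, and 8 counts in brain. Both genes of the azurophil stage were therefore at or near 0 throughout.

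**Figure D1:**
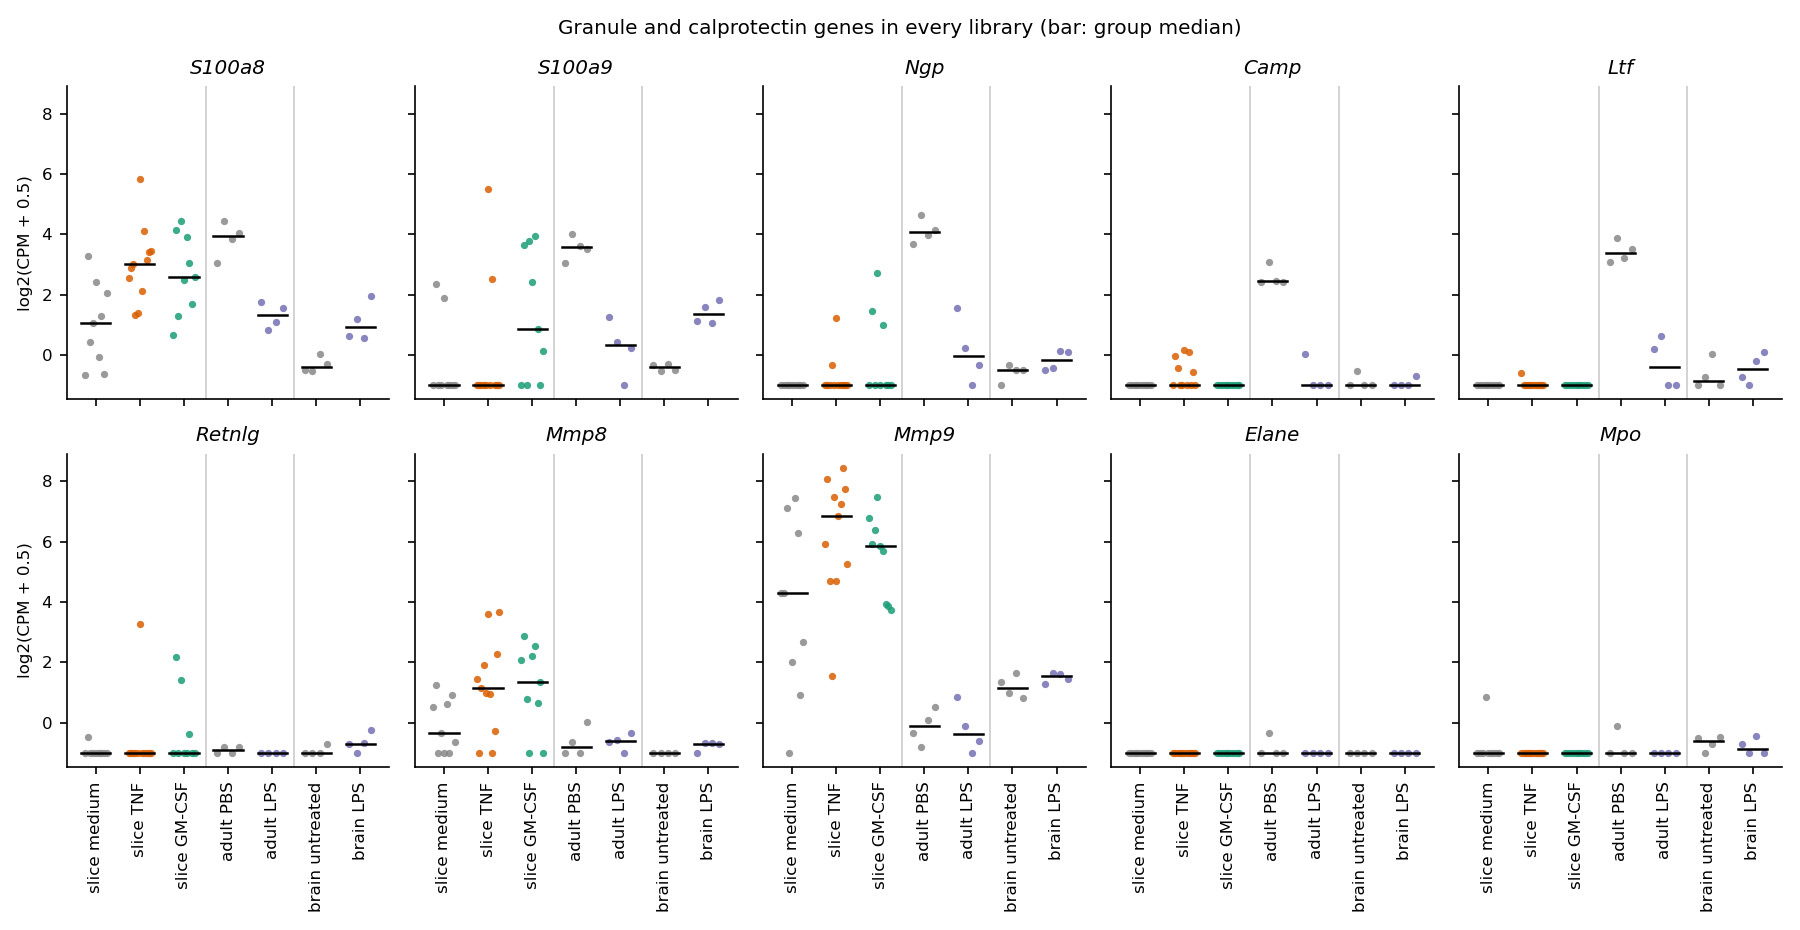
Level of each of the 10 genes in all 45 libraries, as log2(CPM + 0.5) on the vertical axis, with 1 point per library, the 7 groups along the horizontal axis and a black bar at each group's median. Of the specific granule genes, *Ngp*, *Camp* and *Ltf* stood high in the 4 adult PBS libraries alone, while *Mmp8* was highest in slices by group median, as was *Mmp9*.

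In adult microglia, the PBS libraries held the higher levels and the LPS libraries the lower ones. *S100a8* had 108, 293, 173 and 220 counts in PBS replicates 1 to 4, and 39, 15, 21 and 33 counts in LPS replicates 1 to 4. *S100a9* had 107, 217, 147 and 153 counts in PBS, and 26, 10, 0 and 9 counts in LPS. For both calprotectin subunits every LPS library was below every PBS library. Mean *S100a8* was 14.6 ± 5.49 CPM in PBS and 2.04 ± 0.719 CPM in LPS (SD, n = 4 each). Mean *S100a9* was 11.5 ± 3.25 CPM in PBS and 0.854 ± 0.786 CPM in LPS (SD, n = 4 each).

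The specific granule genes *Ngp*, *Camp* and *Ltf* stood further apart. *Ngp* had 171, 343, 190 and 240 counts in PBS, and 33, 8, 0 and 4 counts in LPS. *Camp* had 67, 111, 62 and 67 counts in PBS, and 7, 0, 0 and 0 counts in LPS. *Ltf* had 112, 197, 109 and 152 counts in PBS, and 9, 12, 0 and 0 counts in LPS. No LPS library reached the lowest PBS library for any of the 3. LPS replicate 1 carried most of what was left: 33 of the 45 *Ngp* counts and all 7 *Camp* counts of the LPS group.

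On the log2 scale the fitted LPS minus PBS differences were -2.82 ± 0.33 (SE) for *S100a8*, -3.73 ± 0.58 for *S100a9*, -4.32 ± 0.67 for *Ngp*, -4.65 ± 0.65 for *Ltf* and -5.31 ± 0.67 for *Camp*. Without LPS replicate 1, the differences for *S100a9* and *Ngp* were -4.51 and -5.75, and *Camp* had no count left in the LPS group. Without LPS replicate 2, that for *Ltf* was -5.50. In all, 5 of the 10 members were lower in every LPS library than in every PBS library. Of all 12987 genes tested, 23.3% were lower without overlap (12.7% of all genes with a count), and 27.4% passed the adjusted p and fold limits in either direction.

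The other 5 members gave no such contrast in adult microglia. *Mmp9* had 4, 1, 7 and 13 counts in PBS and 18, 5, 0 and 2 in LPS, so the groups overlapped. *Mmp8* had at most 7 counts in any adult library, and *Retnlg* had 2 counts in PBS and 0 in LPS over the whole of each group. Summed over all 10, the members made 40.8 to 84.4 CPM in PBS and 1.61 to 9.77 CPM in LPS.

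Among the PBS libraries the 5 genes shared the highest and the lowest library. PBS replicate 2 was the highest and replicate 1 the lowest for *S100a8*, *S100a9*, *Ngp*, *Camp* and *Ltf* alike, while replicates 3 and 4 changed places between genes, with a highest to lowest ratio between 1.66 for *Camp* and 2.72 for *S100a8*. Per kilobase of exon, the scale on which genes can be compared, *S100a9* and *S100a8* were at 22.1 and 21.1 CPM per kb on average in PBS. *Ngp* was at 14.2, *Camp* at 7.46 and *Ltf* at 3.04 CPM per kb. The counts of *S100a9* were 0.695 to 0.991 of those of *S100a8* in the 4 PBS libraries.

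Genes listed as markers of other blood and vessel cells moved in the same comparison. Of 5 erythroid genes, 4 were tested and 2 fell (*Hba-a2* and *Hbb-bt*), with a summed level of 6.77 to 227 CPM in PBS and 4.22 to 24.2 CPM in LPS. Of 4 genes listed for platelets, the 1 tested, *Gp9*, fell, with a summed level of 30.0 to 34.3 CPM in PBS and 5.45 to 11.8 CPM in LPS. *Gp9* had 412 to 456 counts per adult PBS library, 0 to 5 per brain library and 8 to 57 per medium slice library. Which cells made the *Gp9* counts was not tested. Of 4 monocyte genes, 2 were tested and *Ccr2* fell, with a summed level of 6.85 to 8.55 CPM in PBS and 4.22 to 6.05 CPM in LPS. The endothelial gene *Pecam1* fell too, the 1 of 5 tested, from 28.9 to 36.3 CPM summed in PBS to 10.2 to 13.7 CPM in LPS. All 3 border macrophage genes tested, of 6, rose, from 10.1 to 15.7 CPM summed in PBS to 27.4 to 44.3 CPM in LPS. Of the 9 microglia genes, 5 fell, from 47620 to 52920 CPM summed in PBS to 28984 to 36452 CPM in LPS. The part of these cells in the members' difference was not tested, and in bulk libraries fewer cells of a type and less RNA per cell cannot be told apart.

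The erythroid genes did not rank the PBS libraries as the members did. Their summed counts were 647, 1137, 84 and 3145 in PBS replicates 1 to 4, highest in replicate 4, whereas the members were highest in replicate 2. Of the genes that define mature neutrophils, *Ly6g* had 1 count in each PBS library and 0 in each LPS library. The 5 stefin A genes, cystatin-type protease inhibitors of neutrophils whose near-identical copies can share reads, had 0 counts in all 8 adult libraries. The chemokine receptor gene *Cxcr2* had 1 to 9 counts in PBS and 9 to 18 counts in LPS.

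In brain tissue, the calprotectin genes stood the other way. *S100a8* had 2, 2, 5 and 3 counts in the untreated libraries and 10, 15, 8 and 30 counts in the LPS libraries. *S100a9* had 3, 2, 3 and 2 counts in untreated brain and 16, 21, 13 and 27 counts after LPS. Every LPS library was above every untreated library for both genes, and LPS replicate 4 was the highest for both. Mean *S100a9* was 0.254 ± 0.0606 CPM untreated and 2.19 ± 0.690 CPM after LPS, and mean *S100a8* was 0.307 ± 0.151 CPM and 1.79 ± 1.11 CPM (SD, n = 4 each). The untreated values lay around the limit that a count of 0 allows.

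The fitted LPS minus untreated difference was 3.05 ± 0.38 (SE) on the log2 scale for *S100a9*. *S100a8* failed the filter on low counts, and without that filter its difference was 2.49 ± 0.47. Of the 10 members, 2 were higher in every LPS library than in every untreated library, beside 9.09% of the 15083 genes tested and 6.11% of all genes with a count. Past the adjusted p and fold limits in either direction were 3.18% of the genes tested.

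*Ngp*, *Camp* and *Ltf*, which fell furthest in adult microglia, gave too few counts in brain to show a direction. *Ngp* had 0, 3, 2 and 2 counts untreated and 2, 2, 5 and 5 counts after LPS, so the groups overlapped. *Ltf* had 0 to 5 counts in each group, and *Camp* had 2 counts untreated and 1 after LPS in all. The opposite changes that named this set were therefore seen for *S100a8* and *S100a9*, and were not detectable at this depth for *Ngp*, *Camp* and *Ltf*.

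*Mmp9*, the gelatinase B gene, had the highest CPM of the members in untreated brain, though per kilobase of exon it was level with *S100a9*, at 0.516 ± 0.169 and 0.486 ± 0.116 CPM per kb (SD, n = 4). It had 20, 15, 25 and 12 counts untreated and 18, 22, 21 and 20 counts after LPS. The groups overlapped, and the fitted difference was 0.34 ± 0.26 (SE, log2). *Mmp8* and *Retnlg* had at most 3 counts in any brain library.

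**Figure D2:**
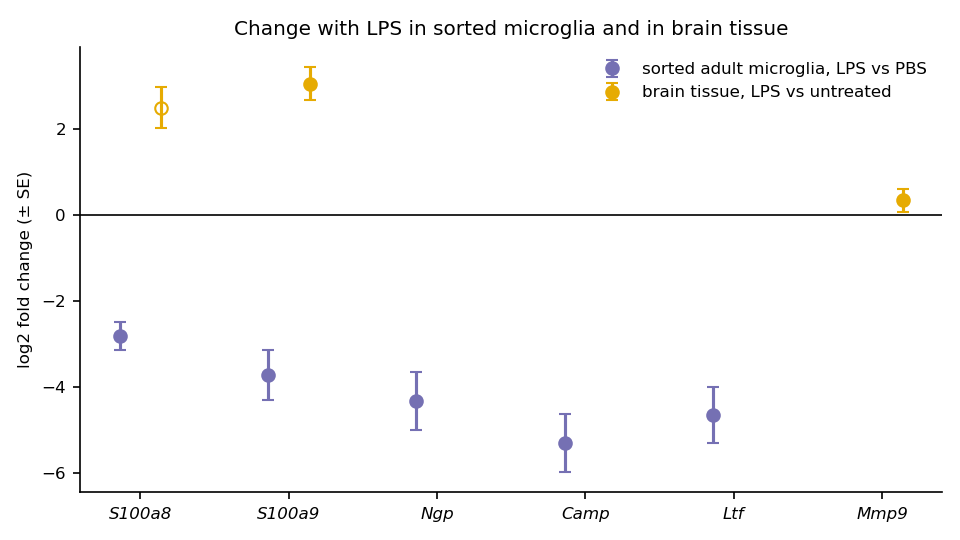
Fitted log2 fold change with LPS (vertical axis, ± SE) for each member that passed the count filter, in sorted adult microglia (purple, LPS against PBS) and in brain tissue (yellow, LPS against untreated), with 4 libraries per group. The open circle is *S100a8* in brain, fitted without the filter, and both calprotectin genes lie below 0 in microglia and above 0 in brain.

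Other cells of the brain samples moved alongside. Of 5 endothelial genes, 3 rose, with a summed level of 154 to 166 CPM untreated and 233 to 269 CPM after LPS. Of 6 border macrophage genes, 4 were tested and 2 rose, from 5.13 to 7.24 CPM summed untreated to 9.43 to 13.8 CPM. None of the 5 erythroid genes tested passed the limits, at 110 to 281 CPM summed untreated and 58.5 to 158 CPM after LPS; by edgeR, their smallest adjusted p was 0.0648. Neither of the 2 monocyte genes tested, of 4, passed the limits, at 26.4 to 32.2 CPM untreated and 30.9 to 37.7 CPM after LPS. *Cxcr2* had 5 to 15 counts untreated and 8 to 16 after LPS, and the stefin A genes had 1 count in the 8 libraries. The part of these cells in the calprotectin difference was not tested.

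Of the genes shown, the calprotectin pair lies on chromosome 3, and *Camp*, *Ngp* and *Ltf* lie on chromosome 9. In GENCODE M21 (GRCm38), *S100a8* spans chr3:90668978-90670035 on the plus strand and *S100a9* spans chr3:90692632-90695721 on the minus strand, 22.6 kb apart with 0 protein-coding genes between. *Camp* (chr9:109847379-109849617, minus), *Ngp* (chr9:110419747-110423012, plus) and *Ltf* (chr9:111019271-111042767, plus) follow each other with 8 and 20 protein-coding genes between neighbours. Each value here is the count over a gene's exons.

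RefSeq (GRCm38.p6) gives promoter entries for 9 of the 10 members, all but *Mmp9*. The 250 bases before each start were searched on both strands for 4 short motifs bound by factors of granulocyte promoters or by the basal machinery. The C/EBP half-sites were searched as TTGCNNAA. The PU.1 core was searched as GAGGAAG. The RUNX core was searched as TGTGGT, and the TATA box as TATAAA. The upstream stretches of 4 of the genes that stood together in adult microglia are shown 5′ to 3′ on the gene's strand, cut before the first base of the GENCODE gene, with motif matches in capitals. They lie at chr3:90668821-90668977 (*S100a8*, plus), chr3:90695722-90695971 (*S100a9*, minus), chr9:110419558-110419746 (*Ngp*, plus) and chr9:111019042-111019270 (*Ltf*, plus).
S100a8: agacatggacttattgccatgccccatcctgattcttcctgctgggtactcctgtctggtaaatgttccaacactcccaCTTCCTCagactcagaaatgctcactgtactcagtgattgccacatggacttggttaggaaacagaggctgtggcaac
S100a9: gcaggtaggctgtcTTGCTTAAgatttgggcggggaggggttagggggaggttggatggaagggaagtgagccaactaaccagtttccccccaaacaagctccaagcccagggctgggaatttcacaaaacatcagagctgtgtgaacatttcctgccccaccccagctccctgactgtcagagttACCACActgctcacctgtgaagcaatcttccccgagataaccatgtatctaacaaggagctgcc
Ngp: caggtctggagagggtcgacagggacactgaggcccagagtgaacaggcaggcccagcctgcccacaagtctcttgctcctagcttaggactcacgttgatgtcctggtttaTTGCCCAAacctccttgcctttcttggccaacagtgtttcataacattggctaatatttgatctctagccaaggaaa
Ltf: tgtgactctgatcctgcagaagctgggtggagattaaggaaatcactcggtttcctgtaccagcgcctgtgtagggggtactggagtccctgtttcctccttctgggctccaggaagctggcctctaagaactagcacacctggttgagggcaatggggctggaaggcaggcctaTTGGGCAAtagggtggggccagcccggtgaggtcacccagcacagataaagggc

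The capitals mark a PU.1 core (CTTCCTC on this strand) in *S100a8*, C/EBP half-sites and a RUNX core (ACCACA on this strand) in *S100a9*, and C/EBP half-sites in *Ngp* and in *Ltf*. *S100a8* also held a TATA box 30 to 25 bases before its RefSeq start, and *Ngp* held C/EBP half-sites again 11 to 4 bases before its start, both outside the stretch shown. The 250 bases of *Camp* held none of the 4 motifs. C/EBP half-sites stood in 5 of the 9 member windows and in 9.56% of all 32851 windows, and the PU.1 core in 4 of 9 and in 10.6%. The RUNX core and the TATA box stood in 1 member window each, and in 14.05% and 12.4% of all windows. The motif letters do not overlap one another, and a match is a run of letters, not a bound site.

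In cultured slices, TNF raised *S100a8* and *Mmp8*. *S100a8* ran from 1 to 85 counts with a median of 11 in medium, and from 14 to 366 counts with a median of 56 with TNF. All 11 TNF libraries held at least 14 *S100a8* counts, while 3 of the 9 medium libraries were at or under 3 counts, and the ranges of the groups overlapped. The TNF minus medium difference was 2.18 ± 0.67 (SE, log2), with an adjusted p of 0.00944 in edgeR's quasi-likelihood test with Benjamini-Hochberg adjustment. Without TNF replicate 6, the library with 366 counts, it was 1.499 (log2; edgeR adjusted p = 0.0376).

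*Mmp8*, the neutrophil collagenase gene, ran from 0 to 17 counts with a median of 2 in medium, and from 0 to 80 counts with a median of 14 with TNF. TNF replicates 6 and 11, at 76 and 80 counts, stood well above the rest, and 2 TNF libraries had no count. The difference was 2.43 ± 0.86 (SE, log2; edgeR adjusted p = 0.0225). It did not pass the adjusted p limit of 0.05 without TNF replicate 6 (edgeR adjusted p = 0.0558) or without TNF replicate 11 (edgeR adjusted p = 0.0574).

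*S100a9* and *Mmp9* did not pass in the same comparison. *S100a9* ran from 0 to 42 counts in medium and from 0 to 293 counts with TNF, with a median of 0 in both, and its difference was 2.34 ± 1.44 (SE, log2; edgeR adjusted p = 0.208). That value was 0.37 with the title code as a term (edgeR adjusted p = 0.892), and *S100a9* failed the filter on low counts without TNF replicate 6. *Mmp9* ran from 0 to 1165 counts with a median of 142 in medium and from 17 to 2249 counts with a median of 803 with TNF. Its difference was 1.41 ± 0.80 (SE, log2; edgeR adjusted p = 0.172). In all, 2 of the 4 members tested passed, both upward, beside 20.8% of the 11313 genes tested in either direction and 9.1% upward.

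*S100a8* was higher with TNF within every code that opens the slice library titles (1A, 1B, 2A and 2B, whose meaning the labels do not give). Its median was 0.834 CPM in medium and 6.87 CPM with TNF in 1A, 1.59 (1 library) and 2.11 CPM in 1B, 2.63 and 10.2 CPM in 2A, and 1.94 and 10.0 CPM in 2B. The ranges overlapped within 1A and 2A. *Mmp8* medians were higher with TNF in the 4 codes as well, from 0.523 against 0.705 CPM in 2A to 0.137 against 4.30 CPM in 2B.

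With GM-CSF, no member passed in edgeR, beside 10.8% of all genes tested. At an unadjusted p under 0.05, 2 of the 4 tested members passed, *S100a8* and *Mmp8*, and DESeq2 called 1, *S100a8*. *S100a8* ran from 10 to 145 counts with a median of 38, and its GM-CSF minus medium difference was 1.72 ± 0.68 (SE, log2; edgeR adjusted p = 0.0638). *Mmp8* ran from 0 to 58 counts with a median of 15, with a difference of 2.06 ± 0.87 (SE, log2; edgeR adjusted p = 0.0826). *S100a9*, at 0 to 111 counts with a median of 10, differed by 2.53 ± 1.48 (SE, log2; edgeR adjusted p = 0.234), and *Mmp9*, at 87 to 1156 counts with a median of 432, by 0.41 ± 0.82 (SE, log2; edgeR adjusted p = 0.778). The *S100a8* difference lay close to the limit: it passed with DESeq2 (log2 1.76, adjusted p = 0.0395) and without medium replicate 2, the medium library with 85 counts (log2 difference 2.32, edgeR adjusted p = 0.0143). It also passed without GM-CSF replicate 1 or 3, or without TNF replicate 6, which enters only through the shared spread (edgeR adjusted p = 0.0416, 0.0498 and 0.0271).

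No member separated TNF from GM-CSF in edgeR, beside 16.2% of all genes tested. None of the 4 tested members had an unadjusted p under 0.05, and DESeq2 called 0. The TNF minus GM-CSF difference of *S100a8* was 0.46 ± 0.62 (SE, log2; edgeR adjusted p = 0.626; -0.23 without TNF replicate 6), that of *Mmp8* 0.37 ± 0.77, that of *S100a9* -0.19 ± 1.28 (-1.94 with the title code as a term, edgeR adjusted p = 0.348) and that of *Mmp9* 1.00 ± 0.79. With standard errors of this size the data do not show that the cytokines act alike on these genes.

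The calprotectin subunits parted company in slices. *S100a9* was at 0 in 19 of the 29 slice libraries, and those 19 held 1 to 68 *S100a8* counts. In the TNF group, 9 of 11 libraries had no *S100a9* count with 14 to 68 *S100a8* counts, and the remaining 2, replicates 6 and 8, had 293 and 36 *S100a9* counts with 366 and 114 *S100a8* counts. In the GM-CSF group, 6 of 9 libraries held over 3 *S100a9* counts, with 38 to 145 *S100a8* counts, and the 3 without it held 10 to 20. In medium, replicates 2 and 5 alone held *S100a9*, at 42 and 22 counts, with 85 and 33 *S100a8* counts. Within each group the libraries with *S100a9* over 3 counts were those with the most *S100a8*, and *S100a8* alone was found in libraries below them.

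In those libraries the proportion of the 2 subunits varied widely and did not follow the *S100a8* count. The *S100a9* to *S100a8* count ratio was 0.801 in TNF replicate 6, 0.316 in TNF replicate 8, 0.105 to 1.02 in the 6 GM-CSF libraries (0.947 in replicate 5, at 38 *S100a8* counts), and 0.494 and 0.667 in medium replicates 2 and 5. Over whole groups, *S100a9* counts were 0.380 of *S100a8* counts with TNF, 0.611 with GM-CSF and 0.352 in medium. Single libraries set the first and the last: the ratio was 0.072 with TNF without replicate 6, and 0.227 in medium without replicate 2. It was 0.786 in adult PBS, 1.22 in brain LPS and 0.417 in adult LPS, where it was 0.275 without replicate 1.

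**Figure D3:**
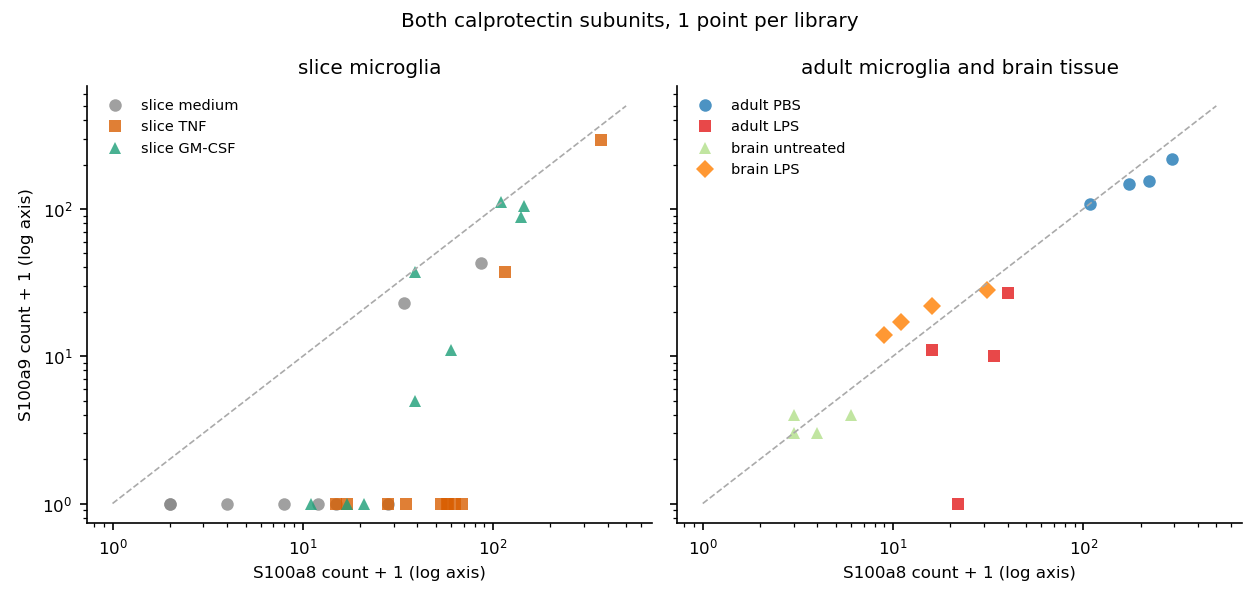
*S100a9* counts (vertical axis) against *S100a8* counts (horizontal axis), each plus 1 on log axes, with 1 point per library, slice microglia on the left and adult microglia with brain tissue on the right; the dashed line marks equal counts. Of the 29 slice libraries, 19 lie on the floor at 0 *S100a9* counts, including 9 of the 11 TNF libraries, whereas the 4 adult PBS libraries follow the line.

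Of the other neutrophil transcripts, *Retnlg*, *Ngp* and the stefin A genes exceeded 3 counts only in slice libraries that held *S100a9*. *Cxcr2* and *Camp* also exceeded 3 counts where *S100a9* was at 0. The receptor genes *Fpr1* and *Trem1* exceeded 3 counts in every slice library, with or without *S100a9*. Below that limit, TNF replicate 4 had 2 *Ngp* counts with *S100a9* at 0. *Retnlg* exceeded 3 counts in 3 slice libraries, with 59 counts in TNF replicate 6, 34 in GM-CSF replicate 2 and 14 in GM-CSF replicate 4. *Ngp* exceeded 3 counts in 4, with 12 counts in TNF replicate 6 and 19, 40 and 11 counts in GM-CSF replicates 2, 4 and 6. The stefin A genes summed to 170 counts in TNF replicate 6, 51 and 58 counts in GM-CSF replicates 2 and 4, and over 3 counts in 6 slice libraries in all. All of these libraries held over 3 *S100a9* counts, and no library at 0 *S100a9* had a stefin A count. *Ly6g* had no count in any slice library. *Camp* had 15 counts in the 29 slice libraries, all with TNF, of which 4, 2 and 1 were in replicates 2, 3 and 10, without *S100a9*. The 1 *Ltf* count was in TNF replicate 1, again without *S100a9*. *Cxcr2* had 18 counts in TNF replicate 6, but also 11 and 6 counts in medium replicates 1 and 8, where *S100a9* was at 0.

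The order of the groups by mean level differed between members. For *S100a8* the order was adult PBS (14.6 CPM), slice TNF (11.8), slice GM-CSF (8.56), slice medium (2.53), adult LPS (2.04), brain LPS (1.79) and untreated brain (0.307), and brain LPS over untreated brain was the only pair of neighbours whose ranges did not overlap. *Ngp*, *Camp* and *Ltf* were highest in adult PBS, at 17.4, 5.65 and 10.5 CPM, with no overlap with the next group. By mean, *Mmp9* was highest in the 3 slice groups, at 129 CPM with TNF, 64.5 CPM with GM-CSF and 48.6 CPM in medium, against 2.32 CPM in brain LPS and 0.472 CPM in adult LPS. Its ranges overlapped between all neighbours, and medium replicates 4 and 8 had 0 and 1.40 CPM. *Mmp8* followed the same order at 3.51, 2.69 and 0.628 CPM in slices, with overlap between all neighbours.

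Beyond the 10, 31 other neutrophil genes in 5 lists were examined. The 8 surface receptor genes among them summed to 573 to 687 CPM in adult PBS, where the 10 members summed to 40.8 to 84.4 CPM. Which cells made the counts of the listed genes was not tested. In adult microglia 10 of the 31 were tested, of which 4 rose and 4 fell with LPS. The genes that fell were *Chil3* (log2 -4.24 ± 0.67, edgeR adjusted p = 0.000412), *Cd177* (-2.43 ± 0.56, adjusted p = 0.00335), *Olfm4* (-1.87 ± 0.37, adjusted p = 0.00120) and *Mxd1* (-0.70 ± 0.13, adjusted p = 0.000860). *Chil3* encodes a secreted chitinase-like protein, *Olfm4* and *Cd177* products of the specific granule. *Chil3* had 47, 96, 53 and 89 counts in PBS and 10, 4, 0 and 0 in LPS, so all PBS libraries were above all LPS libraries.

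The genes that rose were receptors and lipocalin 2. *Il1r2*, the decoy receptor for interleukin-1, had 4 to 12 counts in PBS and 5732, 87, 4132 and 4989 counts in LPS. *Trem1*, an activating myeloid receptor, had 0 to 1 counts in PBS and 254, 25, 364 and 381 in LPS. *Fpr1*, a formyl peptide receptor, had no count in PBS and 158, 23, 137 and 208 in LPS. *Lcn2*, an iron-siderophore binding protein of the specific granule that glia and endothelium also make, had 34 to 69 counts in PBS and 769, 69, 483 and 1031 in LPS. LPS replicate 2 was the lowest LPS library for all 4, and also for *S100a8*, but not for *S100a9*, *Ngp* or *Ltf*. Without it, 12 of the 31 were tested and 7 rose and 4 fell, *Lcn2* with a log2 difference of 4.01 in place of 3.65. LPS replicate 2 was picked for this after its low counts of these genes were seen, so the larger rises are no separate evidence.

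In brain tissue, 2 of the 7 other neutrophil genes tested passed, both upward. *Lcn2* had 2, 0, 3 and 1 counts untreated and 376, 361, 1477 and 861 counts after LPS (log2 9.07 ± 1.26, edgeR adjusted p = 0.00734). *Pglyrp1*, a peptidoglycan recognition protein, rose by 2.04 ± 0.24 (SE, log2; edgeR adjusted p = 0.000355). In adult microglia it failed the filter on low counts, and every LPS library was below every PBS library. *Chil3*, which fell in adult microglia, was higher in every brain LPS library than in every untreated one. Its counts there were 0 to 1 untreated and 1 to 6 after LPS, too few to pass the filter. *Csf3r*, the receptor for G-CSF, differed by 0.46 ± 0.14 and stayed under the fold limit of 1.5, and *Cxcr2* differed by 0.39 ± 0.35.

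In slices, 11 of the 31 were tested, and with TNF 8 rose and none fell. The 3 largest were *Fpr2* (log2 6.66 ± 0.41, edgeR adjusted p = 1.55e-15), *Wfdc21* (5.64 ± 0.70, adjusted p = 3.12e-08) and *Fpr1* (3.35 ± 0.33, adjusted p = 8.33e-10). *Trem1* rose by 3.23 ± 0.32 (adjusted p = 1.86e-10) and *Lcn2* by 2.35 ± 0.53 (adjusted p = 0.000460), while *Csf3r* and *Il1r2* did not pass. With GM-CSF 3 rose, *Trem1* (2.98 ± 0.32, adjusted p = 6.37e-09), *Wfdc21* (2.52 ± 0.77, adjusted p = 0.0134) and *Fpr2* (1.72 ± 0.48, adjusted p = 0.00688), and 3 fell, *Olfm4* (-3.53 ± 1.00, adjusted p = 0.00773), *Fpr1* (-1.60 ± 0.37, adjusted p = 0.00127) and *Csf3r* (-0.91 ± 0.11, adjusted p = 7.12e-08). The median log2 difference of the 11 was 2.35 with TNF and 0.00 with GM-CSF, where the median of all genes was -0.03 and -0.04. Between the cytokines, 8 of the 11 were higher with TNF than with GM-CSF and 0 lower, beside 16.2% of all genes tested in either direction. *Fpr1* and *Fpr2* were among them, at 4.95 ± 0.37 (edgeR adjusted p = 2.72e-12) and 4.94 ± 0.36 (edgeR adjusted p = 1.02e-13) for TNF minus GM-CSF. The others were *Mxd1*, *Olfm4*, *Mmp25*, *Lcn2*, *Hp* and *Wfdc21*.

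**Figure D4:**
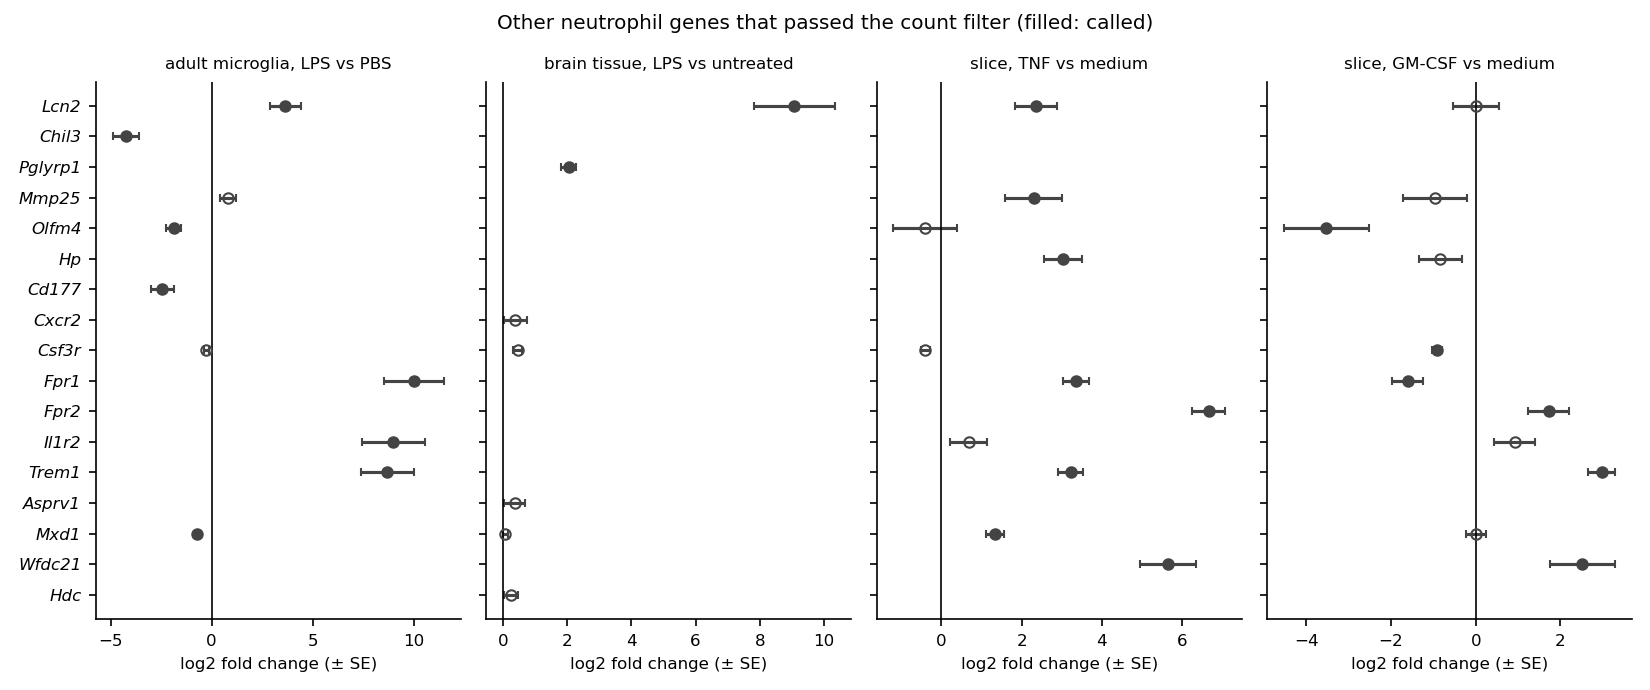
Log2 fold change (horizontal axis, ± SE, with a scale of its own in each panel) of the other neutrophil genes that passed the count filter, for LPS in adult microglia and brain tissue and for TNF and GM-CSF in slices; filled circles passed an adjusted p under 0.05 and a fold over 1.5. *Chil3*, *Olfm4* and *Cd177* lie below 0 in adult microglia, where *Fpr1*, *Il1r2*, *Trem1* and *Lcn2* lie above it.

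Receptors and inhibitors of the member proteins were also followed, 8 genes in all. In brain tissue 6 were tested and 2 rose: *Tlr4*, the receptor through which calprotectin signals, by 0.93 ± 0.26 (SE, log2; edgeR adjusted p = 0.0311) and *Timp1*, an inhibitor of Mmp9 and other metalloproteinases, by 3.17 ± 0.45 (edgeR adjusted p = 0.000752). *Serpinb1a*, an inhibitor of neutrophil elastase, fell by 1.25 ± 0.18 (edgeR adjusted p = 0.000330). In adult microglia none of the 4 tested passed both limits, with *Tlr4* at 0.19 ± 0.08 (edgeR adjusted p = 0.0623). In slices 4 were tested, of which 1 fell with TNF and 2 with GM-CSF. *Tlr4* and the elastase inhibitor gene *Slpi* did not pass with either cytokine. *Timp2*, another metalloproteinase inhibitor, fell with GM-CSF (-0.70 ± 0.08, edgeR adjusted p = 9.8e-09) and was at -0.25 ± 0.07 with TNF, under the fold limit. *Lrp1*, a scavenger receptor that takes up Mmp9, fell with TNF (-1.46 ± 0.20, edgeR adjusted p = 4.22e-07) and with GM-CSF (-0.84 ± 0.21, edgeR adjusted p = 0.00243).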

How the data were processed

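RNA sequencing libraries of sorted microglia were made with a template-switching low-input kit and tagmentation, and those of brain tissue with TruSeq. Slice values were deposited as gene counts, made with STAR 2.7.0a and featureCounts of Subread 1.6.4 on mm10 per the submitters' processing notes. Adult and brain values were deposited as estimated counts on mm10 and were rounded here to whole numbers, which changed totals by 0.00107% and 0.00113%; no source used here names their counting tool, or whether strand was used in any table. In the brain table, 92 rows named no gene, held 0 counts and were left out. Identifiers were named with GENCODE M21.

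Each table was fitted on its own with edgeR 4.0.16 (R 4.3.3) by the quasi-likelihood test, with all of a table's groups sharing the spread, trimmed mean of M values scaling, and a filter on low counts (minimum count 10, minimum total 15). p-values were adjusted by Benjamini-Hochberg over all genes tested, and a call needed an adjusted p under 0.05 and a fold over 1.5. SE is the absolute log2 difference divided by the square root of F. Differences without overlap compare CPM of every library. In simulated counts, 93% of 4-fold and 78% of 2-fold changes were recovered for TNF against medium. For adult LPS against PBS, 92% and 78% were recovered. The changed genes were drawn from all genes tested, so these rates do not give the recovery of members with few counts. Alternatives were total counts, DESeq2 1.42.0 size factors, the DESeq2 test, no filter, the title code, the replicate number, and leaving out each library. The members and gene lists were chosen with earlier results of these data known. The genes named are all members, the fixed genes of each list, and up to 3 more called genes with the largest change.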

Additional observations from a re-analysis of the deposited data

Results flagged for a closer look

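*Camp* held both libraries that stood far from their group, of 22 pairs of member and group examined for this. The rule marks about 1 group in 20 by chance for normally distributed values, a rate that does not hold for counts near 0. The group of 11 TNF slice libraries was not examined, since the rule had no limit for a group of that size. There, TNF replicate 6 had 56.5 CPM of *S100a8* and 45.2 CPM of *S100a9*. The next library, TNF replicate 8, had 16.6 and 5.23 CPM. In adult LPS, replicate 1 had 0.510 CPM and the other 3 libraries had 0 CPM, with 7 counts behind the value. In adult PBS, replicate 2 had 7.98 CPM and the next library 4.99 CPM.

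Every LPS library moved one way in adult microglia and the other way in brain tissue for 2 members, *S100a8* and *S100a9*. This difference was not tested, since the members were chosen on it, and the tables differ in library kit and in control (PBS injected against untreated).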

How the results depend on the processing

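*S100a8* with TNF passed under every alternative run (log2 1.499, without TNF replicate 6, to 2.78; edgeR or DESeq2 adjusted p at most 0.0376). The number of members called with TNF against medium was 2 and ranged from 1 to 2 when any 1 slice library was left out, an alternative chosen after the data were seen. Without the filter it was 5, with *Camp* and *Retnlg* added as higher and *Mpo* as lower, the last from 9 counts in medium replicate 4. The number of other neutrophil genes was then 14 in place of 8, and all these additions rested on few counts. For GM-CSF against medium the number of members called was 0, and 1 with total counts, without the filter (*Ngp*) and with the DESeq2 test, with a range of 0 to 1 leaving out 1 library. For TNF against GM-CSF it was 0, and 1 without the filter (*Camp*). *S100a9* in slices had no value under 9 alternatives, since it then failed the filter; with the replicate block its TNF differences were 1.35 against medium and -1.43 against GM-CSF, and that of *Mmp9* against medium was 2.16, none past the limit. In adult microglia 5 members were lower without overlap under every alternative run, and in brain 2 to 3 were higher. *Ngp*, *Camp*, *Ltf*, *Retnlg*, *Elane* and *Mpo* failed the filter on low counts in brain and slices, so the main fits there did not test them.

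Replicate numbers did not pair the libraries: correlations of same-numbered deviations from group means were -0.053 to 0.031 in adult microglia, -0.080 to 0.041 in brain and -0.049 to 0.195 in slices. With the replicate block, 1 member was called with TNF against medium, *S100a8* (log2 2.28, edgeR adjusted p = 0.0136), and *Mmp8* did not pass (2.03, edgeR adjusted p = 0.0858); no other count of calls or of members without overlap changed.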

Other observations

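The mix of neutrophil transcripts differed between adult microglia and slices. The 4 adult PBS libraries held 944 *Ngp*, 570 *Ltf* and 307 *Camp* counts with 2 *Retnlg* counts and no stefin A count, whereas the 9 GM-CSF libraries held 70 *Ngp* and 50 *Retnlg* counts with no *Ltf* or *Camp* count. The mix also differed within slices: the 11 TNF libraries held 14 *Ngp*, 59 *Retnlg*, 15 *Camp* and 1 *Ltf* counts. Few libraries set these sums: TNF replicate 6 held all 59 *Retnlg* and 12 of the 14 *Ngp* counts. GM-CSF replicates 2 and 4 held 34 and 14 *Retnlg* counts, and 19 and 40 *Ngp* counts. The adult and slice values are from different tables, and none of these differences was tested.

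Of 10 other S100 genes, 8 were tested in slices. *S100a10*, a partner of annexin A2, rose with TNF (log2 1.72 ± 0.29, edgeR adjusted p = 7.54e-06) and with GM-CSF (1.97 ± 0.30, edgeR adjusted p = 3.44e-06). *S100a11* rose with TNF (0.79 ± 0.30, edgeR adjusted p = 0.0337), and *S100a1* (-0.84 ± 0.12, edgeR adjusted p = 1.05e-06) and *S100a4* (-0.97 ± 0.39, edgeR adjusted p = 0.0493) fell. With LPS, *S100a1* rose in adult microglia (0.99 ± 0.16, edgeR adjusted p = 0.000348) and *S100a11* in brain tissue (1.37 ± 0.21, edgeR adjusted p = 0.000490).

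Over the 8 adult libraries, the 5 genes outside the set whose log2 levels were most like *S100a8* were *Crlf3*, *Ppp1r37*, *Gskip*, *Gm16059* and *Trappc12* (Pearson r 0.988 to 0.979), and of 12986 genes *Camp* ranked 17 and *S100a9* ranked 65. Over the 8 brain libraries they were *Akap13*, *Casp8*, *Rplp0*, *Adam15* and *F11r* (r 0.963 to 0.958), and *S100a9* ranked 16 of 15083. All points share the LPS contrast and its libraries.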
